A study of Zea mays with 4 samples.

Results

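Benzoxazinoids are the main chemical defences of young maize plants, stored as glucosides and released as toxic aglucones when an insect or fungus damages the tissue. The genes examined here are bx1 to bx8, which encode the enzymes that turn indole-3-glycerol phosphate into DIMBOA-glucoside, the major benzoxazinoid of the seedling. They were chosen by identifier in the count table, 8 genes of 46430 loci in all, and all 8 passed the filter on low counts. RNA-seq was made from whole wild-type seedlings of B73, a maize inbred line that also supplied the reference genome. They were raised for 9 days in potted soil, at 25 to 28 °C under 16 h of light and 8 h of dark, and then split. Control plants stayed in those conditions, and cold plants were moved to 4 °C for 24 h. Whole seedlings of 10 plants aged 10 days were collected, with 2 libraries per condition, and whether each library held its own 10 plants is not given. No organ was separated, so fewer cells of a type and less RNA per cell cannot be told apart.

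In the pathway, BX1, a plastid enzyme related to the alpha subunit of tryptophan synthase, releases free indole and so draws on a precursor shared with tryptophan. The cytochrome P450 enzymes BX2, BX3, BX4 and BX5 then add oxygen atoms one after another to give DIBOA. BX8 attaches glucose to it, BX6 hydroxylates the glucoside and BX7 methylates the product. The genes are known for lying close together on the short arm of chromosome 4, an arrangement that is unusual for a plant pathway.

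The libraries held 28493929 and 23713326 fragments in control and 24176378 and 20942576 in cold. Values below are CPM, the fragments of a gene brought to a common library size by TMM scaling, unless another scale is named. Levels of different genes are compared only as FPKM, which is the CPM per kilobase of annotated exon. Transcripts of the organelle genomes took 0.0931% and 0.0890% of fragments in control and 0.159% and 0.131% in cold, and the part of this shift in the results was not tested. The plastid gene rbcL, for the large subunit of Rubisco, had between 286 and 449 fragments in each library, whereas psbA had between 1 and 8. The nuclear genes of the table carry no names beyond the 8 used here, so no nuclear marker of leaf or root was checked.

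The 8 genes lie on chromosome 4 of B73 RefGen_v4. Of these, 6 form a run of 265.5 kb (3574390 to 3839930) in the order bx3, bx4, bx5, bx8, bx1 and bx2. The dioxygenase gene bx6 lies 1726.3 kb before the run at 1846585 to 1848071 on the plus strand. The methyltransferase gene bx7 lies far beyond it at 19409404 to 19410924, also on the plus strand. Within the run, bx1 (3833330 to 3835353) and bx2 (3837797 to 3839930) are neighbours on the plus strand, 2.4 kb apart, and bx8 (3787419 to 3789065, minus strand) lies 44.3 kb before bx1. The P450 genes bx3 (3574390 to 3576530, minus strand), bx4 (3614699 to 3616705, minus strand) and bx5 (3672327 to 3674403, plus strand) stand at the other end. The 8 genes have between 1423 and 2037 bases of annotated exon, and no other locus of the table overlaps any of them. A RefSeq gene table of another assembly, Zm-B73-REFERENCE-NAM-5.0, lists all 8 names on a single chromosome in the same order.

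**Figure D1:**
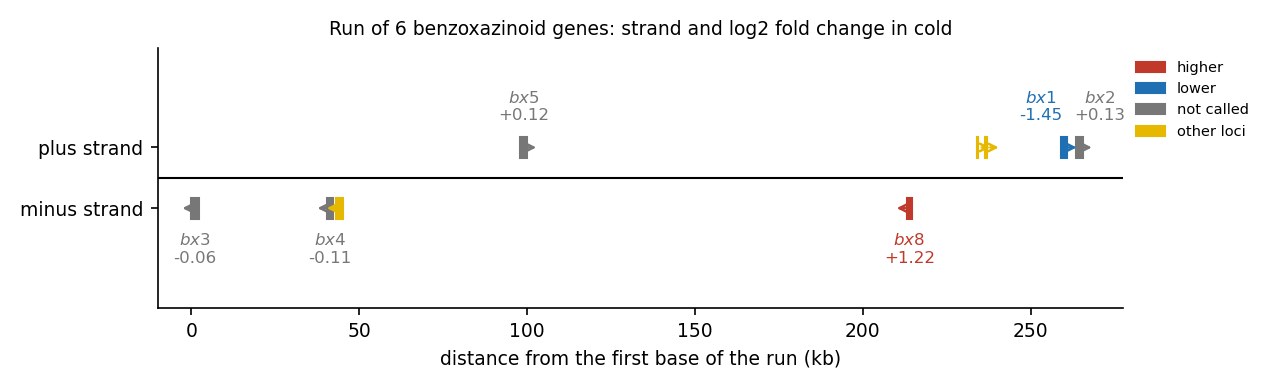
Position of the 6 genes of the run as distance in kb from its first base (x axis), on the plus or minus strand (y axis), with the log2 fold change of each gene in cold printed beside it and the 3 other annotated loci in yellow. The adjacent genes bx1 and bx2 differ in value (-1.45 and 0.13), and bx8 stands at 1.22. Arrows show the direction of transcription.

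After a day at 4 °C, the genes of the pathway did not move together. Transcripts of the first gene, bx1, and of the last, bx7, fell by more than 2-fold, while those of the glucosyltransferase gene bx8 rose by more than 2-fold. The 4 P450 genes and the dioxygenase gene bx6 were not called. Thus 1 of 8 genes was called higher and 2 of 8 lower (adjusted p under 0.05 by Benjamini-Hochberg over 23169 genes, quasi-likelihood test of edgeR). Of all genes tested, 27.0% were called higher and 27.0% lower, 54.0% together, so the number of calls among the 8 is no larger than the background. Changes of 2-fold or more were found for 15.1% of tested genes upward and 14.7% downward, and the 3 called genes all passed that size. The median log2 fold change was 0.03 over the 8 genes and -0.03 over all genes tested. Whether the libraries stand for separately grown plants is not stated in the labels, and the p-values therefore reflect library-to-library spread that could be technical.

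**Figure D2:**
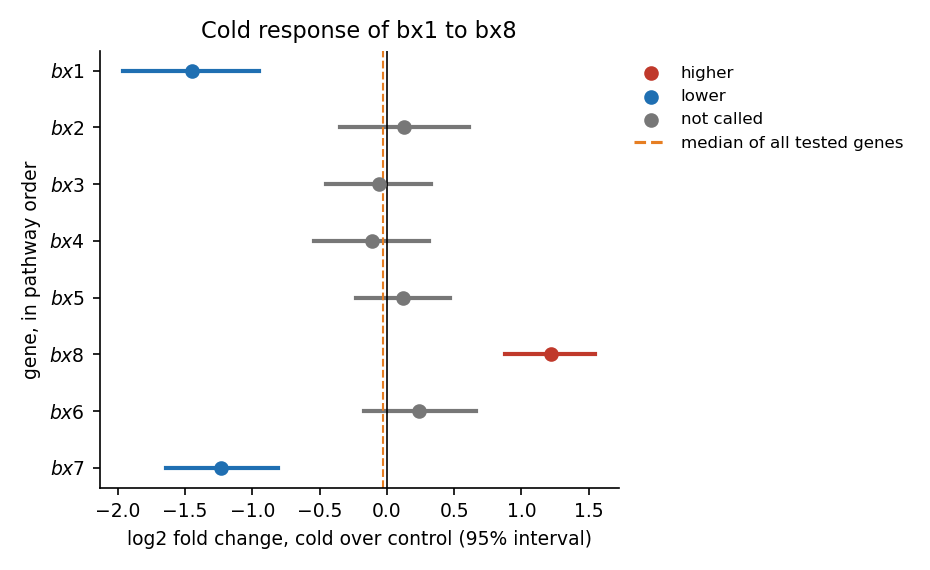
Log2 fold change of cold over control for each gene in pathway order (points), with 95% intervals from the edgeR fit (bars) and the median of all tested genes, -0.03 (dashed line). The intervals of bx1 and bx7 lie below 0 and that of bx8 lies above it, whereas those of the other 5 genes include 0.

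The entry gene bx1 (Zm00001d048709) had 36.3 and 54.7 CPM in the control libraries and 14.7 and 18.6 CPM in the cold libraries. The control libraries were both above the cold ones, although control replicate 2 was 1.51 times control replicate 1. In fragments these were 1090 and 1426 against 344 and 347. The mean fell from 45.5 ± 13.0 to 16.6 ± 2.70 CPM (SD, n = 2 each), a log2 fold change of -1.45 (SE 0.22, 95% interval -1.96 to -0.95, edgeR adjusted p = 0.0012). Per length, 86.3% of tested genes had a level no higher than that of bx1 in control and 64.6% in cold, where it was the lowest of the 8.

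The next gene, bx2 (Zm00001d048710), encodes the P450 that oxidises free indole. It had 53.7 and 85.3 CPM in control and 79.4 and 72.9 CPM in cold. The control libraries lay on both sides of the cold ones. Control replicate 2 was 1.59 times control replicate 1, the largest such ratio among the P450 genes, although the control SD in CPM was the smallest. The log2 fold change was 0.13 (SE 0.21, edgeR adjusted p = 0.61), and its 95% interval of -0.35 to 0.61 leaves room for a modest shift either way. With library totals alone the value was -0.08.

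The other P450 genes, bx3, bx4 and bx5, carry out the later oxygenations and are among the abundant transcripts of the seedling. The gene bx3 (Zm00001d048702) had 215 and 283 CPM in control and 225 and 251 CPM in cold. Both cold values sat between the control values, and the log2 fold change was -0.06 (SE 0.17, 95% interval -0.45 to 0.33, edgeR adjusted p = 0.77). The gene bx4 (Zm00001d048703) had 187 and 231 CPM in control and 164 and 222 CPM in cold. Its groups overlapped too, with a log2 fold change of -0.11 (SE 0.18, 95% interval -0.54 to 0.31, edgeR adjusted p = 0.62). The gene bx5 (Zm00001d048705) had 206 and 254.1 CPM in control and 245 and 254.4 CPM in cold. The higher control library and the higher cold library were almost level, and the log2 fold change was 0.12 (SE 0.15, 95% interval -0.23 to 0.47, edgeR adjusted p = 0.53). For these 3 genes and bx2 the interval excludes a 2-fold change in either direction, and the sign of each small change depended on the scaling or on the library left out.

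The glucosyltransferase gene bx8 (Zm00001d048707), whose enzyme makes the stored and less toxic glucoside, was the only one of the 8 called higher with all 4 libraries. It had 24.8 and 22.2 CPM in control and 49.4 and 60.0 CPM in cold. Both cold libraries were clearly above both control libraries, and fragments went from 744 and 578 to 1153 and 1122. The mean rose from 23.5 ± 1.86 to 54.7 ± 7.51 CPM (SD, n = 2 each), which is 2.33-fold or a log2 fold change of 1.22 (SE 0.14, 95% interval 0.88 to 1.55, edgeR adjusted p = 0.00042). A second maize glucosyltransferase gene, bx9, is known to act on the same substrates. Reads that mapped to several places were left out of the counts, so reads that bx8 shares with a close copy would be missing here.

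The dioxygenase gene bx6 (Zm00001d048634) acts on the glucoside and had 136 and 106 CPM in control and 124 and 163 CPM in cold. The groups overlapped, since cold replicate 1 lay between the control libraries. The log2 fold change was 0.24 (SE 0.18, 95% interval -0.17 to 0.66, edgeR adjusted p = 0.28). This was the only gene whose call changed when a library was left out: without cold replicate 1 it was 0.43 (edgeR adjusted p = 0.027).

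The O-methyltransferase gene bx7 (Zm00001d049179) completes DIMBOA-glucoside. It had 234 and 182 CPM in control and 99.3 and 78.2 CPM in cold, with 7012 and 4747 control fragments against 2319 and 1462 in cold. The lower control library was still well above the higher cold library. The mean fell from 208 ± 36.5 to 88.8 ± 14.95 CPM (SD, n = 2 each), a log2 fold change of -1.23 (SE 0.18, 95% interval -1.64 to -0.81, edgeR adjusted p = 0.0010). Control libraries did not overlap with cold ones for bx1, bx7 and bx8, that is 3 of 8 genes, against 79.4% of all tested genes.

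**Figure D3:**
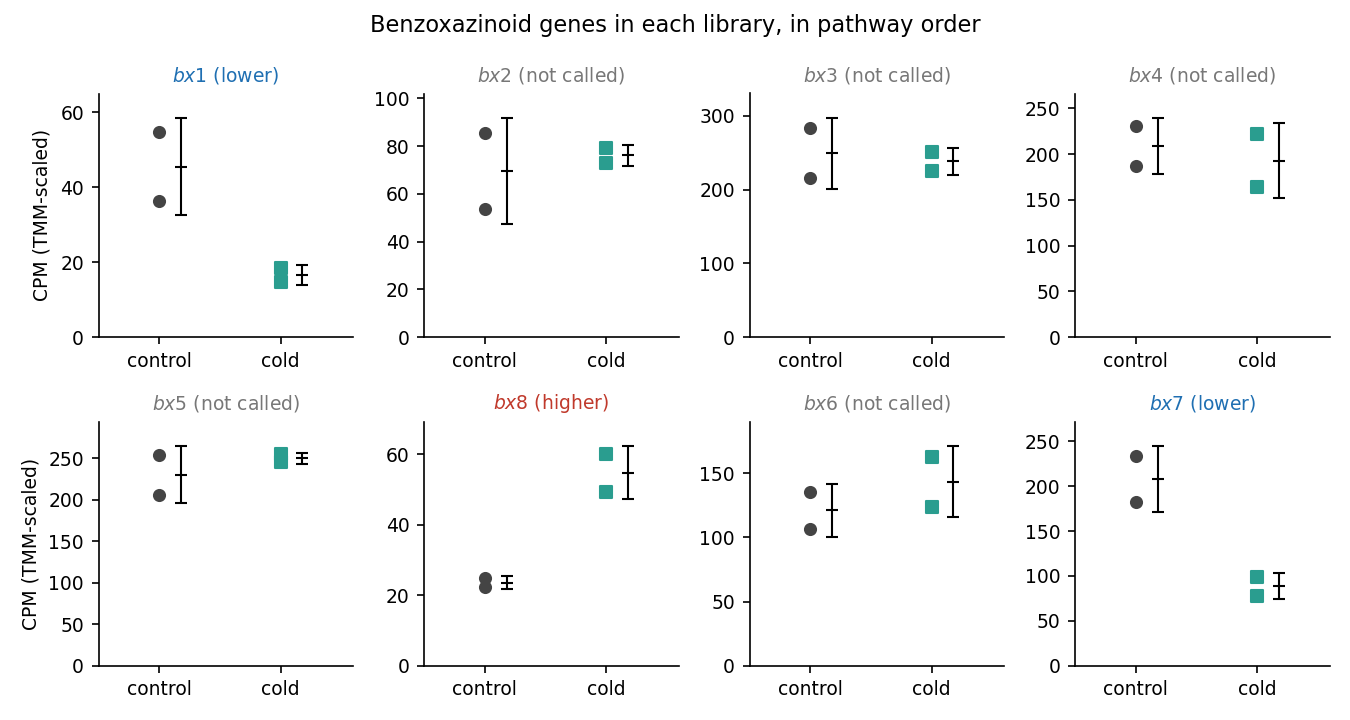
CPM (y axis, linear from 0, own scale per panel) of each gene in the 2 control libraries (circles) and the 2 cold libraries (squares), with mean and SD beside them, in pathway order. The groups separate for bx1, bx8 and bx7, and overlap for the other 5 genes. For example, bx3 had 215 to 283 CPM in control and 225 to 251 CPM in cold.

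Counted per length, the genes fell into an abundant and a scarce set. In control the order of mean FPKM was bx7 (146), bx3 (133), bx5 (124), bx4 (108), bx6 (82.5), bx2 (34.1), bx1 (29.998) and bx8 (15.4). The libraries of bx7, bx3, bx5 and bx4 overlapped from each gene to the next, as did those of bx2 and bx1, so the order within these sets is not beyond the spread. Each of the steps from bx4 to bx6, from bx6 to bx2 and from bx1 to bx8 separated the libraries. In cold the order was bx5 (135), bx3 (127), bx4 (100.03), bx6 (97.8), bx7 (62.4), bx2 (37.4), bx8 (35.8) and bx1 (11.0). The pairs bx5 and bx3, bx4 and bx6, and bx2 and bx8 overlapped. The methyltransferase gene thus went from the top of the order to a place below all 3 later P450 genes and bx6, and bx1 and bx8 changed places at the bottom.

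The 8 genes together took 0.115% (95% Wilson interval 0.114% to 0.116%) and 0.134% (0.132% to 0.135%) of fragments in control. In cold they took 0.0967% (0.0955% to 0.0979%) and 0.10004% (0.0987% to 0.101%). Intervals cover counting error only and not the spread between libraries. They treat each fragment as a separate count, although no molecular identifiers mark which fragments came from distinct molecules. After TMM scaling the sums were 1092.5 and 1218 CPM in control and 1001 and 1120 CPM in cold, which overlap. The summed FPKM was 646 and 701 in control and 573 and 640 in cold, which do not overlap, although control replicate 1 and cold replicate 2 were close. As a share of the summed FPKM, bx7 had 25.4% and 18.3% in control and 12.2% and 8.59% in cold. The share of bx8 went from 2.51% and 2.07% to 5.64% and 6.13%, and that of bx1 from 3.70% and 5.15% to 1.69% and 1.91%. By contrast bx3 held 17.8% and 21.6% in control and 21.03% and 21.0% in cold.

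**Figure D4:**
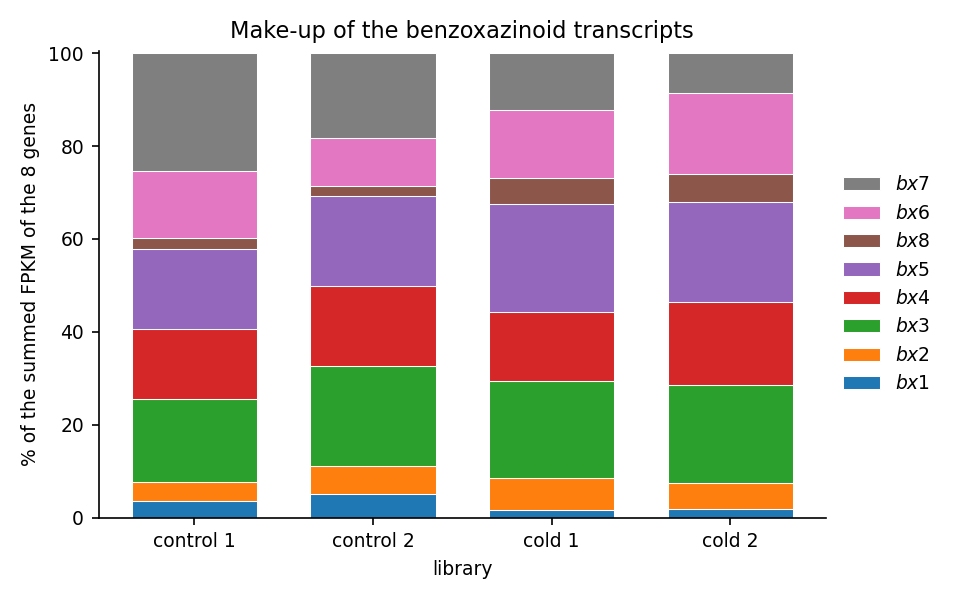
Share of each gene in the summed FPKM of the 8 genes (y axis, percent) in each of the 4 libraries (bars). The bx7 segment is wider in control (25.4% and 18.3%) than in cold (12.2% and 8.59%), the bx8 segment widens from 2.51% and 2.07% to 5.64% and 6.13%, and the bx3 segment stays between 17.8% and 21.6%.

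Ratios between genes within a library do not depend on how libraries were scaled. Each is formed from the same counts as the fold changes above, so a called gene shifts every ratio that holds it. They are a description, chosen with the values above known, and the difference between genes was not tested. The ratio of bx2 to bx1 in FPKM was 1.10 and 1.16 in control and 4.01 and 2.93 in cold. The entry gene and the first P450 gene were thus at near-equal levels in control and apart in cold. Between the P450 genes the ratios moved little: bx3 to bx2 was 4.36 and 3.61 in control and 3.09 and 3.75 in cold, and bx4 to bx3 was 0.844 and 0.790 against 0.705 and 0.857. The ratio of bx5 to bx4 was 1.143 and 1.145 in control and 1.56 and 1.19 in cold, without overlap but with cold replicate 2 close to the control libraries.

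Ratios at the late steps, which hold the called genes bx8 and bx7, moved too. The level of bx8 over that of bx5 went from 0.146 and 0.106 to 0.244 and 0.286. The ratio of bx6 to bx8 went from 5.70 and 4.997 to 2.62 and 2.83. The ratio of bx7 to bx6, the final pair, was 1.78 and 1.77 in control and 0.826 and 0.495 in cold, so the methyltransferase transcript was above the dioxygenase transcript in both control libraries and below it in both cold libraries. The largest shift among the 10 ratios computed was that of bx8 to bx1, from 0.678 and 0.402 to 3.33 and 3.21, so the order of these scarce transcripts was the opposite in cold.

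**Figure D5:**
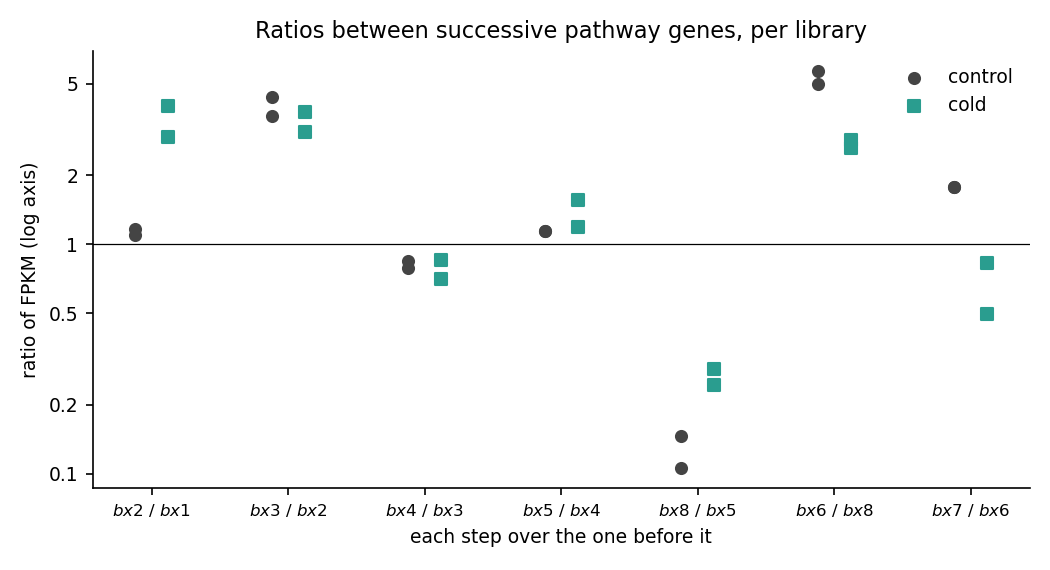
Ratio of FPKM of each gene to the one before it in the pathway (y axis, log scale) in the control libraries (circles) and the cold libraries (squares). The ratio of bx2 to bx1 rises from 1.10 and 1.16 to 4.01 and 2.93 and that of bx7 to bx6 falls from 1.78 and 1.77 to 0.826 and 0.495, while bx3 to bx2 and bx4 to bx3 overlap between conditions.

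The control libraries also differed from each other along the pathway. The genes bx1 to bx5 were all higher in control replicate 2, by 1.23 to 1.59 times, whereas bx6, bx7 and bx8 were all higher in control replicate 1, by 1.118 to 1.28 times. In cold, 6 of the 8 genes were higher in replicate 2, and bx2 and bx7 were higher in replicate 1 (1.09 and 1.27 times).

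Among the 3 other loci inside the run, 2 had no fragment in any of the 4 libraries. The third, Zm00001d026721 (3810795 to 3811461, plus strand), lies between bx8 and bx1. It had 7.37 and 6.49 CPM in control and 3.30 and 2.995 CPM in cold (log2 fold change -1.14, SE 0.22, edgeR adjusted p = 0.0042). On one side of it bx8 rose (1.22), and on the other side bx1 fell (-1.45). Of the 20 nearest tested loci around the run, 6 were higher and 2 lower, against 27.0% each way over all tested genes. Around bx6 there were 8 higher and 4 lower of 20, and around bx7 3 higher and 5 lower of 20, and nothing is read from these small counts.

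Of the 8 genes, bx1 and bx7 were called lower in cold, bx8 was called higher and the others were not called. The average profile of all 8 over the 4 libraries was nearly flat. The tested genes closest to that average by Euclidean distance of centred log2(CPM + 1) values over 4 libraries were Zm00001d007441 (distance 0.017), Zm00001d036400 (0.020) and Zm00001d036888 (0.020). None was called in cold, with edgeR adjusted p = 0.41, 0.44 and 0.36. These genes were picked as the closest of all tested genes, so their distances are not a yardstick for the members. The distance of the members from their own average ran from 0.177 for bx3 to 1.34 for bx8. The average thus describes bx3 and bx4 (0.225) and not bx1 (1.29), bx7 (1.199) or bx8.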

How the data were processed

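The members and the lists were chosen with earlier results of these data known. Per the file headers, the authors deposited unnormalised fragment counts for each gene, from featureCounts 1.6.4 with release 43 of the B73 RefGen_v4 annotation. The command counted read pairs, ignored strand and dropped multi-mapping reads and reads shared by overlapping genes. Near-identical copies and antisense transcripts are therefore uncertain. The submitters' processing notes also list fastp and HISAT2, without versions. The other deposited values, exon lengths, equal the union of the exons listed for each member.

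Genes were kept by filterByExpr (minimum count 10, minimum total 15), which left 23169. Cold was tested against control in edgeR 4.0.16 (R 4.3.3) by its two-sided quasi-likelihood F test, with no term beyond condition and with Benjamini-Hochberg adjustment over all tested genes at 0.05. The common biological coefficient of variation was 0.143. The standard error is the log2 fold change divided by the square root of F. TMM factors were 1.053, 1.100, 0.9664 and 0.8935. The pipeline was tested on simulated data in which far fewer genes changed than were called here, so that test does not cover a shift as broad as this one. A floor of 3 fragments corresponds to 0.105 to 0.143 CPM by library totals.

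All 8 members were named by rule. Of 44146 nuclear identifiers, 0 matched the RefSeq gene table. For that reason 12 further genes of the pathway or related to it (bx9 to bx14, igl1, tsa1, tsb1, tsb2, glu1, glu2) were not analysed here. Sequences were not analysed either. Alternatives were other scaling factors, DESeq2 1.42.0, other filters and thresholds, the replicate number as a block, and each library left out.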

Additional observations from a re-analysis of the deposited data

How the results depend on the processing

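The calls of bx1, bx7 and bx8 held under all 12 alternative fits, with log2 fold changes of -1.71 to -1.14, -1.43 to -1.02 and 1.0 to 1.35. They also held at an adjusted p under 0.01 and with a 2-fold minimum. With a library left out, 1 to 2 genes were called higher and 2 lower. The added gene was bx6, called higher without cold replicate 1 alone (0.43), and its values over all fits ran from 0.03 to 0.45. The small changes of uncalled genes took the other sign in some fits and were not called there. With upper-quartile factors bx2 was -0.03 and bx5 -0.04, and with library totals alone they were -0.08 and -0.10. Without control replicate 1, bx2 was -0.15 and bx5 -0.01. Without control replicate 2, bx3 was 0.14 and bx4 0.04, and without cold replicate 1 they were 0.01 and 0.09. Over the 4 fits with a library left out, bx2 ranged from -0.15 to 0.50, bx3 from -0.23 to 0.14, bx4 from -0.34 to 0.09 and bx5 from -0.01 to 0.27. The values from both scalings follow the median of all genes, which moved from -0.03 to -0.24 with library totals and -0.19 with upper-quartile factors. Relative to it, bx1, bx7 and bx8 stood at -1.43, -1.19 and 1.24 with library totals. These scalings made 36.8% and 39.8% of all calls higher, against 49.99% with TMM. Without division by length, 4 genes kept their place in the order of control levels.

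With the replicate number as a block, 1 gene was higher and 2 were lower, and no call changed. Replicates sharing a number did not deviate together (r = -0.071 across genes). This is a single value from 2 libraries a condition, and the labels do not say what the numbers stand for. Where 1 library was left in a condition, it was assumed to vary like the other condition. The precision for uncalled genes is limited by 2 libraries a condition and is given by their 95% intervals.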
